A study of Zea mays with 2 samples.

Results

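Promoter-proximal binding of the maize transcription factor KN1 is described here, defined as peaks whose summit lay 1 to 500 bp upstream of an annotated gene start. A peak qualified when it lay on 1 of the 10 chromosomes, was listed with a single gene, and that gene carried a nuclear identifier beginning with Zm00001d. The gene start was the lower coordinate of a plus-strand gene and the upper coordinate of a minus-strand gene, as annotated, and was not measured. By this rule 4579 peaks were found at 4574 genes, out of 21437 listed peaks and 20647 that met the same conditions at any position. They made up 22.2% of those 20647 single-gene peaks (exact Clopper-Pearson 95% interval 21.6 to 22.8%), and the genes were 34.1% of the 13415 genes with a single-gene peak. Position alone chose the peaks, so their fold over input was not used by the rule.

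The peaks come from chromatin immunoprecipitation followed by sequencing (ChIP-seq) of B73 leaf protoplasts, cells without walls, isolated from seedlings etiolated in the dark. KN1 carried a BLRP tag, a short peptide that a biotin ligase modifies, and was overexpressed from the transfected plasmid p1107-KN1. The promoter on the plasmid is not given in the sources used here, and both libraries came from transfected protoplasts of the same line. There was 1 ChIP library and 1 input library, so no value below has a replicate error. Intervals of peak counts, shares and medians treat the peaks as independent draws and describe spread among peaks within this pair of libraries. Intervals of a pileup, and of the fold worked out from it, cover read counting only. Peaks are not replicates of a condition, so whether intervals overlap says nothing about repeat experiments. A ChIP library without tagged KN1 was not analysed here. The tissue label cannot be checked, since binding data hold no expression of marker genes.

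KN1 (KNOTTED1) is a homeodomain protein of the KNOX family, which belongs to the TALE group of homeodomain proteins. In maize it is known for keeping shoot meristems undifferentiated, and its own gene is normally not expressed in developing leaves. KNOX proteins are known to act in part by binding near hormone genes, those of gibberellin metabolism among them, and near other homeobox genes. The stretch just before a gene start is the core and proximal promoter, where the transcription machinery and many regulators assemble.

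None of the 4574 gene identifiers could be paired with a symbol in the RefSeq gene table used here, which follows another assembly. Genes are therefore given by identifier and position, without a role. A genome of the build of the files was not used here, so no promoter sequence or motif is shown. Coordinates are those of the deposited table, whose contig names carry the prefix B73V4, with peaks given in 1-based positions.

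Summits became steadily fewer with distance from the gene start. The first 50 bp upstream held 740 summits (exact Poisson 95% interval 688 to 795). The next bins of 50 bp held 695, 586, 557 and 491. The sixth bin held 438, and the count came down to 208 at 451 to 500 bp (interval 181 to 238). Each of the 10 bins held fewer summits than the bin nearer to the gene. The median distance was 173 bp (95% interval 168 to 180 bp), with quartiles of 79 and 290 bp. On the gene side of the start the density was higher still, with 792 summits in the first 50 bp of genes and 841 in the next 50 bp.

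**Figure D1:**
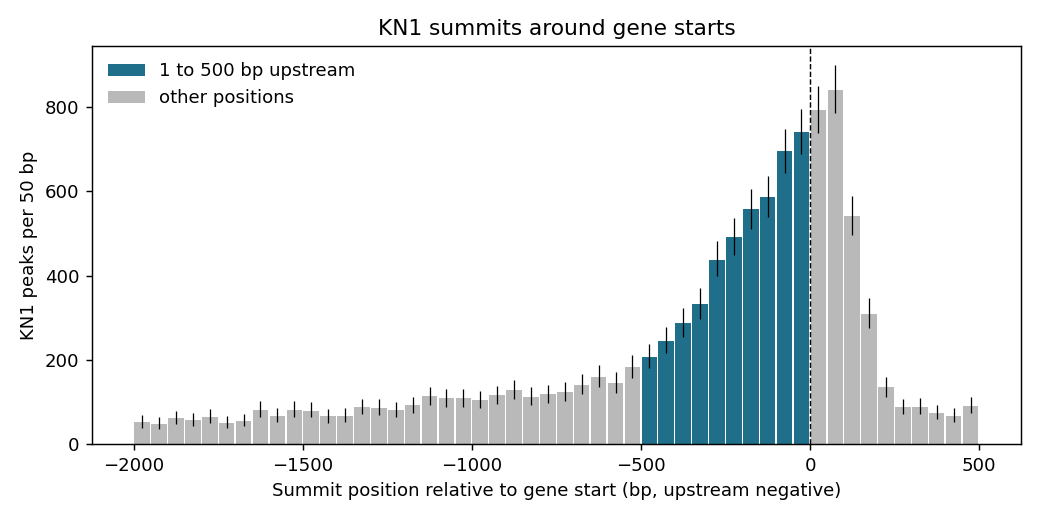
KN1 peaks per 50 bp (y axis) against the position of the summit relative to the annotated gene start (x axis, bp, upstream negative); blue bars are summits 1 to 500 bp upstream, grey bars other positions, and error bars exact Poisson 95% intervals. Counts rise from 208 at 451 to 500 bp to 740 next to the start and reach 841 at 51 to 100 bp inside the gene.

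Peaks on either side of the window's edges are given for orientation. In the last 10 bp of the window, just inside the rule, 36 peaks had a median fold of 8.94, and in the next 10 bp, just outside, 54 peaks had a median of 9.87. At the other edge, 173 peaks at 1 to 10 bp upstream had a median fold of 7.71, and 153 peaks in the first 10 bp of genes a median of 8.76. No test was made on these values.

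Fold is the deposited linear enrichment of ChIP relative to input, read at the summit. It is not a plain ratio of reads, since a constant is added to both before division. Promoter-proximal peaks had a median fold of 9.82 (exact order-statistic 95% interval 9.47 to 10.2), with quartiles of 6.31 and 19.6 and a range of 2.74 to 97.1. Over all single-gene peaks the median was 9.47 (9.11 to 9.47). A fold of at least 10 was reached by 2273 of the promoter-proximal peaks, or 49.6% (48.2 to 51.1%), against 47.2% of all single-gene peaks. A fold of at least 50 was reached by 175 (3.82%, interval 3.29 to 4.42%), against 3.66% overall. Both shares lay close to the background, so no difference is read from them. Among the 100 single-gene peaks with the highest fold, all at 74.3 or more, 17 were promoter-proximal. The interval of 10.2 to 25.8% includes their 22.2% share of all single-gene peaks.

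These folds rest on modest read numbers. The median ChIP pileup, the number of extended reads over the summit, was 28, with quartiles of 17 and 55 and a range of 8 to 276. A pileup of 28 has an exact Poisson 95% interval of 18.6 to 40.5, which at background input spans folds of 6.87 to 14.5. Single peaks near the median can therefore not be ranked against each other. At background input 1 read was worth 0.35 in fold.

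The median fold tended to rise with distance inside the 500 bp, though not from every bin to the next. Among peaks of 400 to 600 bp the split at 250 bp showed no difference, as given below. The median fold was 8.06 (7.71 to 8.76) for summits in the first 50 bp and 8.76 (8.06 to 9.47) in the next bin. The 4 bins after these had medians of 9.82, 10.2, 10.5 and 10.2. From 301 bp outwards the bins had medians of 11.4, 13.7, 11.9 and 12.8, the last with an interval of 10.9 to 14.7. The interval of the nearest bin does not overlap that of the farthest. The share of peaks of at least 10-fold went from 40.9% (37.4 to 44.6%) in the nearest bin to 60.1% (53.1 to 66.8%) in the farthest. Peaks of at least 50-fold were 12 of 740 in the nearest bin (1.62%, 0.84 to 2.82%) and 9 of 208 in the farthest (4.33%, 1.997 to 8.05%), with intervals that overlap.

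**Figure D2:**
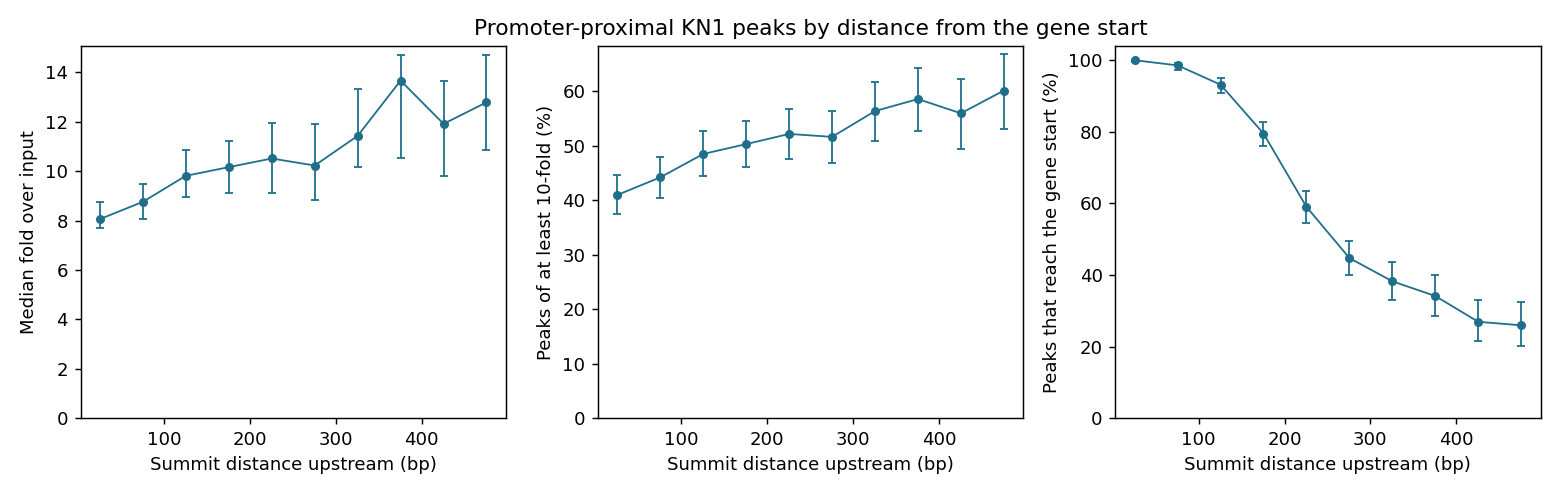
Promoter-proximal peaks in 10 bins of 50 bp by distance of the summit upstream of the gene start (x axes, bp); from left to right, the median fold, the percent of peaks of at least 10-fold and the percent of peaks that reach the gene start, with 95% intervals as error bars. The median fold goes from 8.06 to 12.8 and the share of 10-fold peaks from 40.9 to 60.1%, whereas the share that reaches the start falls from 100 to 26.0%.

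Split at 250 bp, the 3069 near peaks had a median fold of 9.11 (8.76 to 9.47) and the 1510 far peaks one of 11.6 (10.9 to 12.6). The split was chosen after seeing the data. The subsets given next divide the same peaks and are not independent repeats. Far peaks had the higher median on 10 of 10 chromosomes, by 0.95 on chromosome 9 to 4.21 on chromosomes 2 and 10. On chromosome 1 the values were 8.76 and 12.6 and on chromosome 2 they were 9.11 and 13.3, with intervals that do not overlap. On the other 8 chromosomes the intervals of near and far peaks overlap, as on chromosome 10, with 8.41 and 12.6. At plus-strand genes the medians were 8.76 and 11.9, and at minus-strand genes 9.47 and 11.4. Among peaks with input at the genome background they were 9.11 and 11.9, and among those with raised input 8.97 and 11.3. The intervals of the peaks with raised input overlap (7.97 to 10.96 near and 8.82 to 13.4 far).

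The same order held when genes were divided by length into 3 equal groups. Medians were 9.11 near and 11.9 far in the shortest, 9.47 and 11.04 in the middle and 9.11 and 11.9 in the longest group. In the middle group the intervals overlap (9.11 to 10.3 near and 10.2 to 12.97 far). Far peaks were also wider, with a median of 533.5 bp against 445 bp. Among peaks of 400 to 600 bp the medians were equal, at 11.2 on both sides of 250 bp, and 59.1% and 59.0% of peaks reached 10-fold. Width and fold are tied by the peak call, since a taller pileup stays above the threshold over a longer stretch. The part of width in the difference was not tested further.

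**Figure D3:**
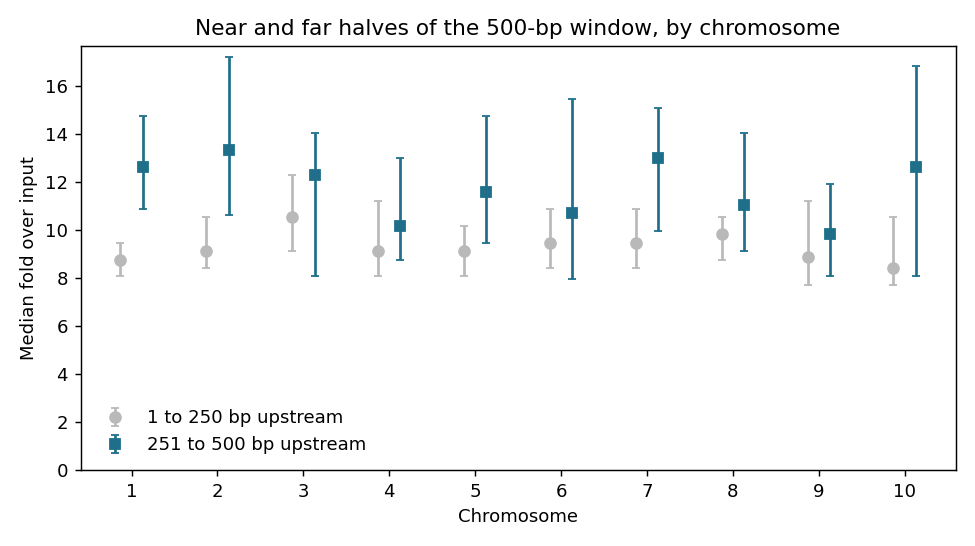
Median fold over input (y axis) on each chromosome (x axis) for summits up to 250 bp upstream (grey circles) and farther ones up to 500 bp (blue squares), with exact order-statistic 95% intervals. The far peaks have the higher median on all 10 chromosomes, and the intervals overlap on 8 of them. The split was chosen after seeing the data.

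Promoter-proximal peaks of all widths lay between their neighbours in median fold. The 2850 peaks with summits beyond 500 and up to 2000 bp upstream had a median fold of 11.6 (10.9 to 11.9) and reached 10-fold in 55.0% of cases (53.2 to 56.9%). The 2707 peaks in the first 300 bp of genes had a median of 7.71 (7.36 to 7.97) and reached 10-fold in 36.4% (34.5 to 38.2%). Over peaks of all widths the intervals of the 3 classes do not overlap. Beyond 500 bp the median per 50 bp showed no further rise, with values of 11.9, 11.9, 10.9 and 11.6 in the first 4 bins. Among peaks of 400 to 600 bp the promoter-proximal median minus that of the first 300 bp was -0.41 with a range that includes 0 (-1.40 to 0.70). The difference from summits farther upstream was -1.75 overall (-2.45 to -0.70). It was -1.40 (-2.10 to 0) at that width and -1.05 (-2.80 to 0.70) among peaks with scores above the median, and both intervals reach 0.

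**Figure D4:**
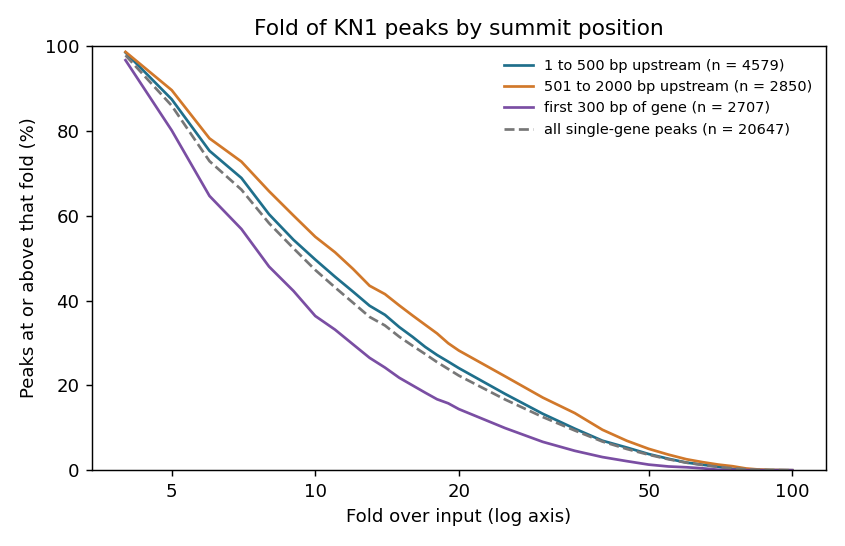
Percent of peaks at or above a given fold over input (y axis) against fold (x axis, log scale) for summits 1 to 500 bp upstream, beyond that up to 2000 bp and in the first 300 bp of genes, and for all single-gene peaks (dashed). At 10-fold the curves stand at 49.6, 55.0, 36.4 and 47.2%.

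Most promoter-proximal peaks extended over the gene start. The median width was 469 bp, with quartiles of 336 and 657 bp, against 454 bp for all single-gene peaks, and 156 peaks had the minimum width that the table holds. The first base of the gene lay within the peak in 3245 of 4579 cases (70.9%, 69.5 to 72.2%). These peaks ran a median of 150 bp into the gene (quartiles 81 and 234 bp), and 22 covered the whole annotated gene. The other 1334 ended before the gene, with a median gap of 102 bp. The share that reached the start was 100% in the nearest bin, 59.1% at 201 to 250 bp and 26.0% at 451 to 500 bp.

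Peaks that reached the start had a median fold of 11.9 (11.3 to 12.3), and those that ended before it 7.01 (7.01 to 7.36). Their median widths were 522 and 371 bp, and a wider peak reaches farther by construction. Only 6 of the 1334 peaks that ended before the start reached 50-fold, against 169 of the 3245. The arm of the peak on the gene side of the summit was longer than the upstream arm in 2834 peaks and shorter in 1718, with medians of 228 and 211 bp.

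Distance varied with the length of the gene model. At the 361 peaks of genes shorter than 500 bp the median distance was 266 bp (253 to 284 bp). It was 186 bp at genes of 1000 to 2000 bp, 140 bp at genes of 4000 to 8000 bp and 129 bp (111 to 148 bp) at the 389 peaks of longer genes. Summits within 100 bp of the start were 14.1% of the peaks in the shortest group and 42.2% in the longest. Fold did not follow gene length in this way, with medians of 10.9 (9.11 to 11.9) in the shortest and 9.11 (8.06 to 10.9) in the longest group. The median gene was 2464 bp long, and 59 peaks lay at gene models shorter than 200 bp.

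The strongest promoter-proximal peak lay at Zm00001d026154 on the minus strand of chromosome 10, at fold 97.1 with 276 reads and a counting interval of 86.03 to 109. It covered the first 532 bp of a gene of 1895 bp, and 2 weaker peaks of fold 6.66 and 6.31 lay 1774 and 2691 bp upstream. The second, at 89.4, lay 412 bp upstream of Zm00001d047040 on chromosome 9 (116368372 to 116368444, plus strand). That gene model is only 73 bp long, and the peak at 116367552 to 116368321 ended 51 bp before it. The third, at Zm00001d022600 on chromosome 7 (180836776 to 180839587, plus strand), had a fold of 85.5 and its summit 73 bp upstream. Its peak, 180836085 to 180837121, was the only one listed for the gene.

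At Zm00001d027929 on chromosome 1 (17839868 to 17840788, minus strand) a fold of 84.8 was found 482 bp upstream, in a peak of 1338 bp that was also the gene's only one. Zm00001d020614 on chromosome 7 (125133740 to 125135827, minus strand) had 5 peaks. Its promoter-proximal one, 372 bp upstream, had a fold of 81.3, and the others 22.1, 12.97, 7.36 and 4.56. A similar contrast was seen at Zm00001d005664 on chromosome 2 (182691742 to 182692998, plus strand), with 80.6 at 330 bp upstream and 12.6 beyond the gene.

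A pair of adjacent genes on the minus strand of chromosome 10 both ranked among the first 12. Zm00001d026203 (140869750 to 140871173) had a fold of 84.1 at 337 bp upstream, and Zm00001d026204 (140872548 to 140874240) a fold of 77.8 at 157 bp. Their peaks, at 140870944 to 140871919 and 140873927 to 140874762, were separate, with summits 2887 bp apart. Of all neighbouring pairs with promoter-proximal peaks at both starts, this pair had the highest fold at its weaker member.

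Zm00001d031777 on chromosome 1 (201510972 to 201513199, plus strand) had 3 peaks of more than 30-fold. The promoter-proximal peak, 405 bp upstream, had a fold of 76.8, a peak 1186 bp inside the gene 36.5 and one just past the gene end 40.7. The remaining genes among the first 12 were Zm00001d043097 at 79.2, Zm00001d022190 at 78.5 and Zm00001d034501 at 77.8. All 12 had input at the genome background, and the counting interval of the 12th, 67.0 to 87.6, overlaps that of the first. In 11 of the 12 the peak reached the gene start.

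**Figure D5:**
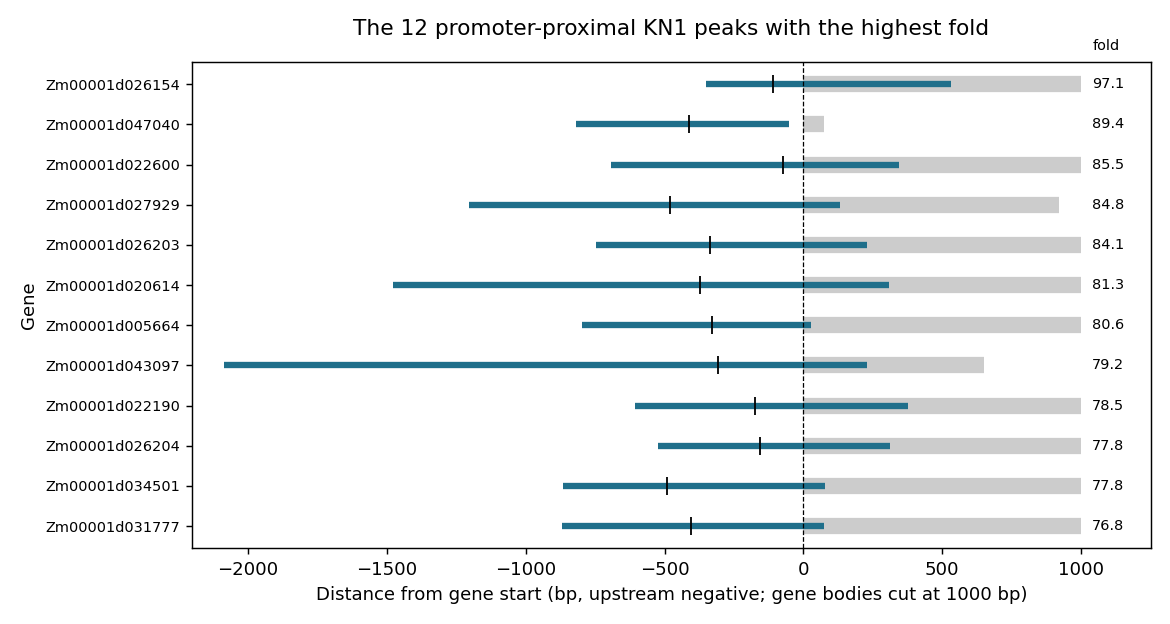
The 12 promoter-proximal peaks with the highest fold, drawn to scale along the distance from the gene start (x axis, bp, upstream negative); blue bars are peaks, black ticks summits, grey bars gene bodies cut at 1000 bp, and the fold is printed at the right. Of these peaks 11 cross the start, and the one at Zm00001d047040 ends 51 bp before it.

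The widest promoter-proximal peaks extended mainly away from the gene. The peak of 2978 bp at Zm00001d015515 on chromosome 5 (95181493 to 95184470) had a fold of 62.7, with its summit 448 bp upstream and an upstream arm of 1949 bp. Upstream arms of 1928 and 1781 bp were found at Zm00001d017457 and Zm00001d043097, whose peaks spanned 2396 and 2316 bp. The fourth, of 2223 bp at Zm00001d051863, was symmetric about its summit, with arms of 1111 bp.

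Strong peaks occurred at both ends of the window. In the 458 peaks that form the top 10% by fold, all at 34.7 or more, the median distance was 224.5 bp, and 92.8% reached the gene start. In the 458 weakest, with folds up to 4.91, the median distance was 148 bp and 52.8% reached it. The nearest summit in the top 10% lay 1 bp upstream of Zm00001d008322 on chromosome 8 (5172219 to 5181074, plus strand), with a fold of 40.7 in the gene's only peak. Those at Zm00001d007121 and Zm00001d048138, both 2 bp upstream, had folds of 47.7 and 40.0, and that at Zm00001d002475, 3 bp upstream, 38.6.

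The farthest of the top 10% lay 497 bp upstream of Zm00001d026047 on chromosome 10 (136891564 to 136893726, minus strand), with a fold of 45.2. That gene had 8 listed peaks, and one on its far side reached a nearly equal 44.5. At 496 bp, folds of 60.6, 36.8 and 36.1 were found at Zm00001d034031, Zm00001d027949 and Zm00001d007789. Of the last pair, neither peak reached the gene.

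In 2502 cases (54.6%, 53.2 to 56.1%) the promoter-proximal peak was the only one listed for its gene. The same share was 41.5% over all single-gene peaks, 35.5% (33.8 to 37.3%) for summits farther upstream, up to 2000 bp, and 66.3% (64.5 to 68.1%) for those in the first 300 bp. Lone promoter-proximal peaks had a median fold of 9.11 (8.76 to 9.47), against 11.2 (10.5 to 12.3) where the gene had 2 peaks. The medians were 10.9 (9.82 to 11.96) with 3 peaks, 10.7 (9.11 to 12.97) with 4 and 14.02 (10.2 to 16.8) with 5 or more, so that no steady rise was seen and these intervals overlap. Peak counts per gene include only peaks within 5 kb, the range of the table.

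Where a gene had 2 or more peaks, the promoter-proximal peak was the strongest in 954 of 2077 cases (45.9%, 43.8 to 48.1%). An even share, 1 divided by the number of the gene's peaks, would average 41.8%. Over all single-gene peaks of such genes, 39.8% were the strongest (39.0 to 40.7%), against an even 39.5%. Peaks in the first 300 bp were the strongest of their gene in 35.7% (32.6 to 38.9%), below an even share of 42.8%. Summits farther upstream, up to 2000 bp, were so in 44.4%, against an even 39.5%.

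Against other single-gene peaks of the same gene, the outcome depended on where the other peak lay. The promoter-proximal peak was the stronger in 709 of 1129 comparisons with peaks farther inside the gene (62.8%, 59.9 to 65.6%), with median folds of 12.3 and 7.71. It was the stronger in 277 of 606 comparisons with peaks farther upstream, up to 2000 bp (45.7%, 41.7 to 49.8%) and in 220 of 506 with peaks beyond 2000 bp (43.5%, 39.1 to 47.9%). Against peaks downstream of the gene it was 536 of 1057 (50.7%, 47.6 to 53.8%). A separate peak in the first 300 bp of the gene was listed for 33 genes, at a median spacing of 519 bp, and in 23 of them (69.7%, 51.3 to 84.4%) the upstream one was stronger. Genes with several other peaks enter more than once.

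Separate peaks within the 500 bp were rare, with 2 promoter-proximal peaks at 5 of the 4574 genes. At Zm00001d042781 on chromosome 3 (179455595 to 179457593, plus strand) the nearer peak, 50 bp upstream, had a fold of 17.9 and the farther, at 480 bp, 5.26. At Zm00001d011918 on chromosome 8 the folds were 10.5 at 9 bp and 4.56 at 444 bp. At Zm00001d004698 on chromosome 2 they were 4.21 at 48 bp and 4.91 at 485 bp, with 11 and 13 reads and counting intervals that overlap. The peak call can merge sites that lie close together into 1 peak.

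Neighbouring genes with promoter-proximal peaks at both starts, no more than 5000 bp apart, formed 42 divergent, 50 tandem and 23 convergent pairs. Both peaks reached 10-fold in 15 of the divergent, 18 of the tandem and 3 of the convergent pairs. Taken singly, 49.6% of all promoter-proximal peaks reached 10-fold. That share cannot be set directly beside the pairs, where both peaks must reach it. Whether pairs of any orientation depart from what that share would give was not tested, so no contrast between orientations is read. The strongest divergent pair by its weaker peak was Zm00001d017380 and Zm00001d017381 on chromosome 5, with starts at 193890043 and 193892301 and folds of 51.2 and 37.2. It was followed by Zm00001d012418 and Zm00001d012419 on chromosome 8 (33.0 and 53.5), Zm00001d039077 and Zm00001d001486 on chromosome 6 (26.6 and 71.9) and Zm00001d043180 and Zm00001d043181 on chromosome 3 (25.9 and 29.4). The smallest distance between the starts of a divergent pair was 860 bp. A peak that touches both genes of a pair is listed with both and was left out by the rule.

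The input level used by the peak call was the genome background, 1.85, at all but 409 promoter-proximal peaks (8.93%, 8.12 to 9.80%). Among all single-gene peaks 7.95% were raised. The background acts as a floor, so input below it cannot be seen. At peaks on this floor, fold follows the ChIP pileup alone. Raised levels were small, from 2.01 to 4.02, the highest being 2.17 times the background. Their median was also 2.01, so many raised peaks differed little from the others in input. Peaks with raised input had a median fold of 9.68 (8.64 to 11.3), and the others 9.82 (9.47 to 10.2). The highest level was found at Zm00001d006903, Zm00001d028690, Zm00001d031634 and Zm00001d035163, with folds of 7.77, 7.37, 7.37 and 4.18. In the first 300 bp of genes 12.1% of peaks had raised input (10.9 to 13.4%), and farther upstream, up to 2000 bp, 7.02% (6.11 to 8.02%). Among peaks at the background level alone, the promoter-proximal median minus that of the first 300 bp was 2.10 (range 1.40 to 2.80). The difference from summits farther upstream was -1.75 (range -2.45 to -0.70). Both differences equalled those over all input levels. The part of input in them was not tested further.

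Between chromosomes the promoter-proximal share of single-gene peaks ranged from 21.0% on chromosome 10 (18.8 to 23.2%) to 24.8% on chromosome 8 (22.9 to 26.8%). The median fold ranged from 9.11 on chromosome 9 to 10.5 on chromosome 3, with overlapping intervals (8.06 to 10.9 and 9.47 to 12.6). Each chromosome, up to the end of its last listed peak, was cut into 10 equal segments. Promoter-proximal peaks had a density of 4.01 per Mb in the first and last segments and 0.89 per Mb in the fourth to sixth, a ratio of 4.52. Single-gene peaks at any position were also denser at the ends, with 7869 there and 2245 in the middle. The promoter-proximal share of these was 24.9% in the middle (23.2 to 26.8%) and 21.5% at the ends (20.5 to 22.4%). The median fold of promoter-proximal peaks was 9.11 (8.26 to 10.2) in the middle and 10.2 (9.47 to 10.9) at the ends, and these intervals overlap. Plus-strand and minus-strand genes had 2312 and 2267 peaks, with median folds of 9.63 (9.11 to 10.2) and 10.2 (9.68 to 10.5).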

How the data were processed

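Peak calling with MACS2 (no version), alignment software Bowtie2 2.4.2, SAMtools 1.11 and the read trimmer fastp 0.21.0 are listed, per the submitters' processing notes, with no settings. The deposited table has 1 row per peak and gene and no header. It gives the authors' fold, a linear ratio between ChIP and input. Under the MACS2 formulas used here, it is the pileup plus 1, divided by the input level plus 1. Significance was deposited as −log10 of p and q, and the authors' score follows q. Per the peak names, duplicates were removed and the effective genome size was 700 Mb, which sets the input background and so the scale of fold at most peaks. The effect of removing duplicates on fold was not tested. The depth per library is not given, so pileup and input were solved from fold and p-value under the MACS2 formulas, and 21437 peaks were all solved to a relative error under 1e-05. Gene coordinates were taken as 1-based, since the mitochondrial genes found in RefSeq by locus tag, 114 of 114, had equal coordinates there. Fold and distance were described with exact 95% intervals (Clopper-Pearson, Poisson, order statistics). Ranges given for differences of medians join opposing ends of the separate intervals and are not 95% intervals. No test was run, since each group has 1 library. Listed peaks all exceeded input by the peak call, and promoters without a peak were not analysed here.

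Named peaks were the 12 with the highest fold, the 4 widest, the 4 with the highest input, the 4 nearest and 4 farthest in the top 10% by fold, 3 of the 5 genes with 2 promoter-proximal peaks (ties taken by highest fold) and the first 4 divergent pairs. Others named are companions of these. The rule, the window and the comparisons were chosen with earlier results of these data known. The limit of 5000 bp for neighbours and the split at 250 bp were chosen after seeing the data. On simulated data, pileup, input, distance, class and overlap with the gene start were recovered for 100.0% of 1000 peaks. The simulated pileup and input were values already solved from the deposited peaks, and the same formulas were used in both directions. This shows that the calculation can be inverted, not that the solved values are true. For overlap, simulated summits at or inside the gene start were counted as recovered in every case. Values were computed with pandas 2.3.3, scipy 1.17.1 and numpy 2.4.6 in Python 3.11.15, and plotted with matplotlib 3.10.9.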

Additional observations from a re-analysis of the deposited data

Results flagged for a closer look

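Peaks in the same 500 bp that the rule leaves out also exceeded input. The table lists 201 peaks with several genes and a summit 1 to 500 bp upstream of at least 1 of them, with a median fold of 14.02 and a median width of 589 bp. A further 5 peaks lay upstream of genes with other identifiers, with a median fold of 6.31. The reported values use neither set, and 45 of the 201 peaks enter only 1 of the recomputations.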

How the results depend on the processing

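Of 85 recomputed values, 51 stayed within the interval of the reported value (for the number of peaks, within 1.5 times it), 33 left it and 1 reversed. With scores above the median, 2351 peaks remained, with a median distance of 192 bp and a median fold of 18.9. Of these 96.7% reached 10-fold, 7.44% reached 50-fold, 81.4% reached the gene start, 50.4% were alone at their gene and 66.4% the strongest of several. Their median exceeded that of the first 300 bp by 2.80. At a −log10 q of at least 10 the same values were 184 bp, 14.02, 68.7%, 5.29%, 76.7%, 52.9% and 57.1%. Restricting peaks by score or q raises fold by construction. Among peaks of 400 to 600 bp, 1482 remained, with a distance of 163 bp, a fold of 11.2, shares of 59.0% at 10-fold and 0.34% at 50-fold, and 58.2% alone at their gene. There the difference from the first 300 bp was -0.41 (-1.40 to 0.70), which changes sign but includes 0, and far peaks exceeded near ones by 0, a check chosen after seeing the data. The cause was not tested. With a window of 250 bp the median distance was 108 bp, the fold 9.11, the shares 46.6% at 10-fold, 3.10% at 50-fold and 88.1% at the start, and the differences -2.45 from summits farther upstream, up to 2000 bp, and 1.40 from the first 300 bp. With a window of 1000 bp the distance was 239 bp, 57.9% reached the start and 51.5% were alone. That window overlaps the class up to 2000 bp, so the difference from it was not computed, nor was the split at 250 bp under either other window. Background input, peak midpoints and the addition of 45 peaks with several genes, all with the summit in the window, left values within their intervals. The exception was the number of peaks at background input, 4170, which lay outside its interval but within 1.5 times the reported number. No paired analysis was possible because each group has 1 library.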
